A study of Homo sapiens with 36 samples.

Results

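Accessible chromatin at the genes of the TEAD transcription factors (TEAD1, TEAD2, TEAD3 and TEAD4) and of their cofactors YAP1, WWTR1 and VGLL4 was followed in BT549 cells, a mesenchymal-like line of triple-negative breast cancer. A region was assigned to a gene when its centre lay inside the gene or within 50 kb of either end, after the peaks of all libraries had been merged wherever they overlapped by at least 1 bp. This gave 315 regions of 259704 in all, at 7 of the 19720 protein-coding genes that had a region. A library holds a region when a peak of it overlaps the region. Coordinates are on hg38.

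The data are peak lists from ATAC-seq, which marks open chromatin by the insertion of sequencing adapters by a transposase, from 36 libraries in 10 groups and 3 experiments. In the GATA6 experiment cells labelled wild type received control siRNA (siCtl) or a pool of siRNAs against the transcription factor GATA6 (siGATA6, knocked down for 72 h). Vehicle (Veh) or 500 nM dexamethasone (DEX), a synthetic glucocorticoid, was then given for 2 h, with 3 libraries in each of the groups siCtl_Veh, siCtl_DEX, siGATA6_Veh and siGATA6_DEX. In the BRM014 experiment wild-type cells were kept for 4 h in DMSO or in 10 µM BRM014, which blocks BRG1 and BRM, the ATPases of the SWI/SNF remodeller. This was done without DEX (DMSO, BRM014) or with 500 nM DEX for 4 h (DEX_DMSO, DEX_BRM014), with 4 libraries per group. In the ATPase knockdown experiment siRNA against BRG1 and BRM together (siBRG1_siBRM) was set against control siRNA (siCtl_only), with 4 libraries each. The labels give no duration for that knockdown, and a peak list does not measure the level of the targeted transcripts.

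TEAD proteins bind DNA but activate transcription poorly by themselves. The coactivators YAP (encoded by YAP1) and TAZ (encoded by WWTR1) bind them in the nucleus, and VGLL4 competes for the same surface as a repressor. The Hippo kinases phosphorylate YAP and TAZ and keep them out of the nucleus, and YAP and TAZ are known to be active in many mesenchymal cancer cells. The SWI/SNF remodeller moves nucleosomes with the energy of its ATPase subunit.

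Libraries held 114113 to 131423 peaks in the GATA6 experiment, 41026 to 103956 in the BRM014 experiment and 37184 to 87609 in the ATPase knockdown experiment. Peak number fell with BRM014 from 94069 ± 4805 to 53586 ± 9441 (SD, n = 4 each; two-sided exact permutation p = 0.0286, the smallest possible). It fell by 43.8% with BRM014 in the presence of DEX and by 40.6% with siBRG1_siBRM, with the same p. A background level recovered from the deposited fold and p values served as a measure of relative depth. The ratio of its group means was 0.980, 1.03 and 0.960 in these comparisons. The share of the peaks used that lay at this level was 43.6% to 64.2% in DMSO and 19.6% to 43.9% in BRM014 libraries. It was 32.8% to 47.9% in siCtl_only and 15.5% to 51.4% in siBRG1_siBRM. In most treated libraries the level thus rests on a minority of peaks, and ratios near 1 do not establish equal depth. The part of read depth in the lower peak number was not tested. The background level lay at 0.492 to 0.677 in the GATA6 experiment and at 0.235 to 0.335 in the others, and experiments were therefore not compared with each other. A peak at a gene end was held by all 36 libraries at 9 of 10 mesenchymal markers (ZEB1 in 33). This was so at 2 of 10 luminal markers, FOXA1 and ELF3, with ESR1 and GRHL2 in none and the rest in 10 to 22. It was so at 2 of 8 leukocyte markers, CD14 and SPI1, with PTPRC in 30, CD3E in 16 and 4 in none. No endothelial marker of 6 was held by all, with CLDN5 in 34, KDR in 24, TEK in 18 and 3 in none. Such peaks alone thus do not part the cell types cleanly.

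The starts of these genes were compared first. RefSeq (GRCh38.p14) lists 11 starts for TEAD2, TEAD3, YAP1, WWTR1 and VGLL4. TEAD1 and TEAD4 were not matched. The 250 bases upstream of 5 of these starts are printed 5′ to 3′ in the direction of the gene, to set starts whose region was lost in a comparison of SWI/SNF inhibition (the first pair) beside starts held by all 36 libraries (the next pair) and a start without a region (the last). Capitals mark matches to the motifs searched.
TEAD3 start 1 chr6:35497080-35497329 (- strand): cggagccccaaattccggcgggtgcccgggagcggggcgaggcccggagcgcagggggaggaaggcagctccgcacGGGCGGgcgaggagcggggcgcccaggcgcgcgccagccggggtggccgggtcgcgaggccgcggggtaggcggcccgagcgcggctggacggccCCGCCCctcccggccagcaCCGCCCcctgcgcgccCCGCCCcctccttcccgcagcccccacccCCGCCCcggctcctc
TEAD2 start 2 chr19:49361518-49361767 (- strand): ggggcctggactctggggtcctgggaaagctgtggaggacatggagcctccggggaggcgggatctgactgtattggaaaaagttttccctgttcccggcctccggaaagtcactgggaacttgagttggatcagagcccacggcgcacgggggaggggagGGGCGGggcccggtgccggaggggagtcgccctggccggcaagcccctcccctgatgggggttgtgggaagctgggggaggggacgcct
YAP1 start 1 chr11:102110197-102110446 (+ strand): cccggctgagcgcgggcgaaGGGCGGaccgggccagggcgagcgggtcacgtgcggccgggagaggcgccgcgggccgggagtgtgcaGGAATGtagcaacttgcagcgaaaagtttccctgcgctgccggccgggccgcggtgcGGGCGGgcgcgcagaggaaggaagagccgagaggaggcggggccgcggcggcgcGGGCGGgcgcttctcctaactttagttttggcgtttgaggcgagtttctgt
WWTR1 start 2 chr3:149658026-149658275 (- strand): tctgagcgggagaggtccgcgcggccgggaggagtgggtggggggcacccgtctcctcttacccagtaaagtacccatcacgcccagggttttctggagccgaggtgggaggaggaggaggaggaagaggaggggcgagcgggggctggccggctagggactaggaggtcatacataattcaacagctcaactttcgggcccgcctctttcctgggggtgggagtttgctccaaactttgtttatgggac
WWTR1 start 1 chr3:149703274-149703523 (- strand): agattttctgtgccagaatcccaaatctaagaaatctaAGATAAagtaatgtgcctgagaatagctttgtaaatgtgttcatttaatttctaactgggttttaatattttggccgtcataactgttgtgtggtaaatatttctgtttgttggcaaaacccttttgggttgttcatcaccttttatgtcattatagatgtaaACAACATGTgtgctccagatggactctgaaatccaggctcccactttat

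On both strands the search covered GGAATG for TEAD factors, TGANTCA for AP-1, ACANNNTGT for the glucocorticoid receptor, AGATAA for zinc-finger factors of the GATA family and GGGCGG, known as the GC box. These letters occur in 11.9%, 6.6%, 4.6%, 9.2% and 42.6% of the 34788 upstream windows of the same length in the table. No matches overlapped in the windows printed. In the sequences, the YAP1 window held 1 TEAD match, whose first base lies at -162 from the start, and 3 GC boxes. The TEAD3 window held 5 GC boxes and 84.0% G and C, above YAP1 with 72.0%, TEAD2 start 2 with 67.6% and WWTR1 start 2 with 62.0%, where the median of all windows was 58.0%. WWTR1 start 1 was the poorest in G and C of those printed, with 35.2%, 1 glucocorticoid receptor match at -49 and 1 GATA match at -212. A match of this length is a description of the letters only.

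The region over the YAP1 start, chr11:102109906-102110673, was held by all 36 libraries, as were that over WWTR1 start 2 at chr3:149657861-149659544, that over VGLL4 start 2 at chr3:11643630-11644138 and that over the lower-coordinate end of TEAD1 at chr11:12673922-12674768. At YAP1 the authors' fold enrichment at this region was 10.5, 11.7 and 12.7 (lowest, median and highest of 4 libraries) in DMSO and 7.97, 9.78 and 12.2 in BRM014. At WWTR1 start 2 it was 17.4, 18.3 and 19.2 in DMSO and 20.8, 23.1 and 26.9 in BRM014. These folds belong to single peaks and to the background of their own library, and describe how far a peak stood out there.

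The TEAD3 start showed the opposite pattern when all peaks were counted. Its region, chr6:35497123-35497598, was held by all 4 libraries of DMSO, of DEX_DMSO and of siCtl_only and by all 12 of the GATA6 experiment, but by 1 of 4 in BRM014, 0 of 4 in DEX_BRM014 and 0 of 4 in siBRG1_siBRM. Next to it, chr6:35497753-35498075, nearer to the neighbouring gene TULP1, had the same counts. A region just inside the gene, chr6:35496240-35496565, was held by 2 of 4 libraries in BRM014 and 3 of 4 in DEX_BRM014, but by none in siBRG1_siBRM against 4 of 4 in siCtl_only. The single BRM014 library with the start region had a fold of 8.99, against 4.33 to 7.58 in DMSO. The DMSO folds lay below the median fold of all peaks in those libraries, 8.17 to 8.43. When an equal number of best peaks was taken in every library, no region of these genes went from all siCtl_only libraries to no siBRG1_siBRM library. There, 1 region went the other way. The loss of the TEAD3 start with the knockdown was thus absent in that setting. The part of the lower peak number in this loss was not tested.

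TEAD2 has a listed start at each of 2 positions close to its higher-coordinate end. The region over start 1 was held by 32 of 36 libraries, with 3 of 4 in BRM014 and 2 of 4 in siBRG1_siBRM. That over start 2, chr19:49361477-49361772, which also lies at the neighbouring gene DKKL1, was held by all 4 DMSO libraries and no BRM014 library. With DEX the counts were 3 of 4 without BRM014 and 0 of 4 with it. In siCtl_only 1 of 4 libraries held it, so it was scarce in the control libraries of that experiment. The region at the lower-coordinate end of TEAD4 was held by 35 libraries, 1 siBRG1_siBRM library lacking it. WWTR1 start 1 and VGLL4 start 3 had no region in any library.

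**Figure D1:**
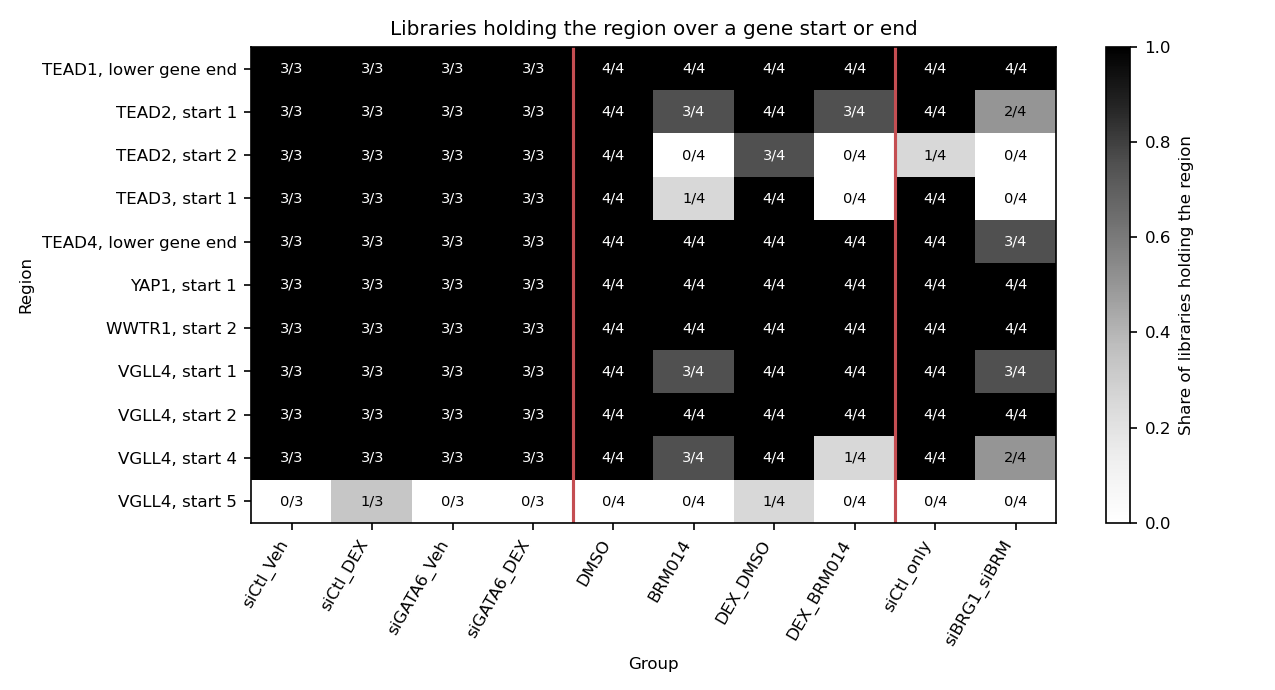
Rows are regions over a RefSeq start or, for TEAD1 and TEAD4, over the lower-coordinate gene end, columns are the 10 groups with red lines between experiments, and each cell gives libraries holding the region of libraries in the group, shaded by that share. The TEAD3 start is held by 1/4, 0/4 and 0/4 libraries of the 3 groups with inhibited or depleted ATPases, while YAP1 start 1 and WWTR1 start 2 are held throughout.

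Over gene bodies and flanks together, the 3 longest genes had the most regions. WWTR1 (208 kb) had 72 regions, VGLL4 (166 kb) 65, TEAD1 (270.3 kb) 60, YAP1 (123 kb) 36, TEAD4 (81.3 kb) 34, TEAD3 (23.5 kb) 28 and TEAD2 (21.8 kb) 20. Per 100 kb of gene and flanks the range was 16.1 at YAP1 to 24.5 at VGLL4. Centred inside the gene were 54 regions at WWTR1, 39 at VGLL4, 52 at TEAD1, 24 at YAP1 and 22 at TEAD4. At TEAD3 these were only 9 of 28 and at TEAD2 only 5 of 20. Many regions were rare: 29 of 60 at TEAD1 and 1 of 20 at TEAD2 were held by a single library.

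In all, 33 regions were held by every library: 9 at WWTR1, 6 at TEAD2, 4 each at TEAD1, TEAD3, TEAD4 and VGLL4, and 2 at YAP1. They are called constant for their presence only, since fold moved in both directions among them. At a constant region of TEAD4 it was 20.3 to 22.3 in DMSO and 7.21 to 8.67 in BRM014. Over WWTR1 start 2 it was higher with BRM014, as given above. The constant regions of YAP1 were that over its start and 1 centred 1.07 kb inside the gene. All 4 constant regions of TEAD3 were centred outside the gene, as were all but 1 at TEAD2 and all but 1 at TEAD4. The windows of TEAD2 and TEAD3 hold 4 other coding genes each, and that of TEAD4 holds 2. Which gene such a region belongs to was not tested. Within 1000 bp of a gene end or start 10 of 42 regions were constant (23.8%; 31.2% over all genes), and farther away 23 of 273 (8.42%; 5.53% over all genes). The constant region with the highest mean fold was chr3:149480332-149480673 at WWTR1 (33.6), nearer to the neighbouring gene TM4SF4. At TEAD4 it was chr12:3041573-3041881 (28.8), just past the higher-coordinate gene end, and at TEAD2 chr19:49391982-49392196 (28.8), nearer to KASH5. The others were chr6:35449513-35449685 near FANCE for TEAD3 (24.2), chr3:11600447-11601155 inside VGLL4 (22.9), chr11:12964141-12964370 past the higher-coordinate end of TEAD1 (18.5) and the start region of YAP1 (11.5).

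The coactivator genes were tested first against BRM014, over both DEX levels, with labels exchanged within each level (4900 arrangements, Benjamini-Hochberg adjustment over 19131 genes). Of all genes, 13467 (70.4%) held fewer regions and 11 (0.0575%) held more, and the median gene fell by 31.6%. A call at a member is therefore read against a background in which most genes are called. Every gene whose groups do not overlap at either DEX level has the smallest possible exact permutation p, 0.000408, and the smallest adjusted p, 0.00145. How many genes separate in this way was not counted. The adjusted p is this small only because many genes share the smallest p, STK3, FRMD6 and CRIM1 among them. A lack of overlap below is therefore a description of the member only and does not set it apart.

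At YAP1 the libraries held 14, 18, 14 and 15 regions in DMSO and 6, 9, 5 and 3 in BRM014. With DEX they held 17, 14, 13 and 14 without the inhibitor and 5, 7, 4 and 6 with it. No library with BRM014 reached the lowest library without it at either DEX level. The mean of 14.9 fell to 5.62, a change of -62.2% (adjusted p = 0.00145, exact permutation test). YAP1 stood furthest below the median gene of the 7 members.

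At WWTR1 the counts were 25, 32, 28 and 26 in DMSO and 13, 19, 19 and 13 in BRM014. With DEX they were 31, 26, 27 and 25 without and 16, 19, 17 and 17 with the inhibitor. The groups again did not overlap. The mean of 27.5 fell to 16.6, a change of -39.5% (adjusted exact permutation p = 0.00145).

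VGLL4, the repressive cofactor, held 19, 21, 21 and 19 regions in DMSO and 13, 13, 11 and 7 in BRM014. With DEX the counts were 24, 23, 21 and 23 without and 17, 14, 10 and 9 with the inhibitor. The mean went from 21.4 to 11.8, a change of -45.0% (adjusted exact permutation p = 0.00145), and the groups did not overlap at either DEX level.

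Among the DNA-binding factors TEAD1 showed the largest change. It held 17, 19, 17 and 15 regions in DMSO and 8, 11, 9 and 8 in BRM014, and 15, 17, 17 and 16 against 12, 11, 6 and 9 with DEX. No inhibited library reached an uninhibited one. The mean of 16.6 fell to 9.25, a change of -44.4% (adjusted exact permutation p = 0.00145).

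The other 3 TEAD genes also held fewer regions. At TEAD2 and TEAD3 most regions counted lie outside the gene, in windows with 4 other coding genes each. TEAD2 held 12, 14, 14 and 12 regions in DMSO and 10, 11, 8 and 7 in BRM014, and with DEX 12, 13, 10 and 11 against 11, 11, 10 and 10, where the groups overlapped. TEAD3 held 10, 10, 9 and 11 in DMSO and 8, 10, 8 and 5 in BRM014, and with DEX 10, 11, 12 and 11 against 9, 9, 7 and 8. TEAD4 held 11, 13, 14 and 10 in DMSO and 10, 10, 10 and 5 in BRM014, and with DEX 15, 11, 13 and 12 against 13, 9, 9 and 7. At TEAD4 the groups overlapped or touched at both DEX levels. The changes were -20.4% at TEAD2 (adjusted exact permutation p = 0.0135), -23.8% at TEAD3 (0.00515) and -26.3% at TEAD4 (0.0188), each nearer to 0 than the median gene. For TEAD3 and TEAD4 this order turned in other settings. With peaks of a −log10 q past 5 TEAD3 stood at -41.7% (median gene -30.0%). Where peaks had to cover 50% of a region, TEAD3 stood at -48.5% and TEAD4 at -50.0% (median -42.8%). With 10 kb flanks they stood at -33.3% and -31.1% (median -29.2%), and with 100 kb TEAD4 stood at -37.2% (median -33.3%).

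**Figure D2:**
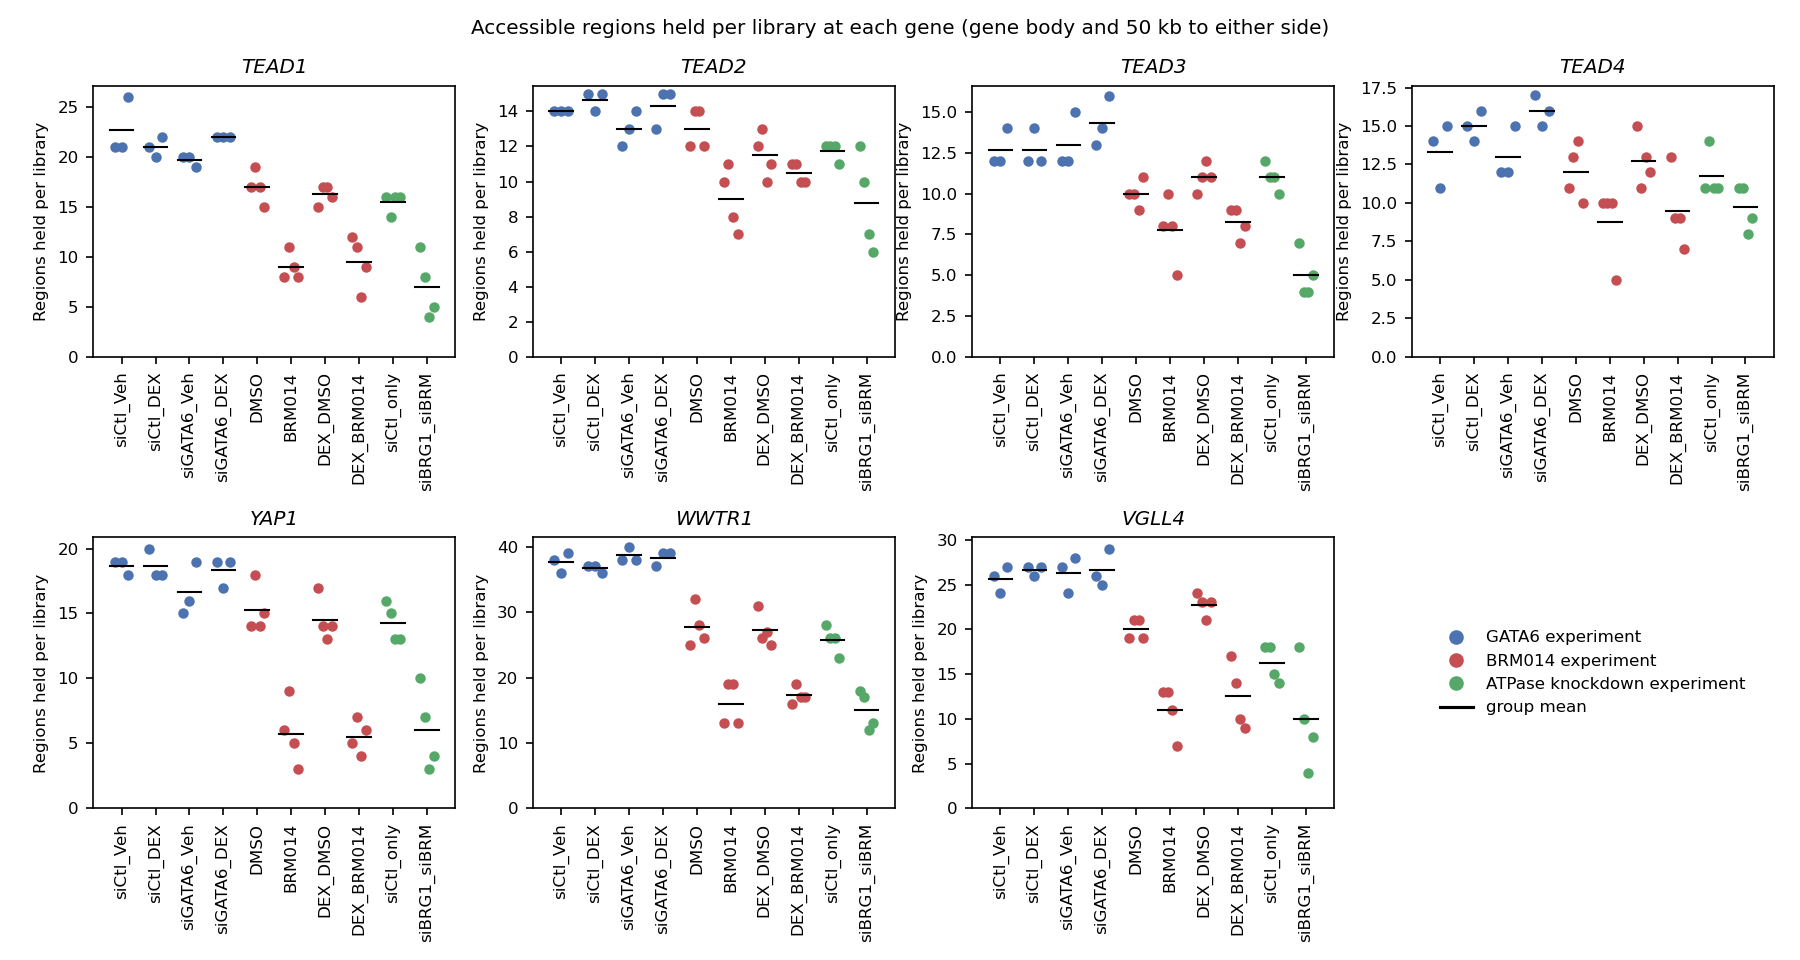
Each point is a library, the vertical axis is the number of regions it held at the gene, black bars are group means and colours mark the 3 experiments. At YAP1 the libraries with BRM014 hold 3 to 9 regions and those without 13 to 18, while at TEAD4 the ranges meet.

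Since the libraries with BRM014 held fewer peaks, the counts were also expressed per 10000 peaks of the library. On that scale the median gene rose by 21.0% (0.275 on the log2 scale, against -0.547 for plain counts), and 8634 genes were higher and 2271 lower. YAP1 remained lower at -33.6% (adjusted p = 0.00159, exact permutation test). TEAD2, TEAD3 and TEAD4 turned higher, by 41.0%, 34.1% and 28.7% (adjusted exact permutation p = 0.00453, 0.00159 and 0.0156), so the direction of their change depends on the scale. TEAD1 at -1.94%, VGLL4 at -3.91% and WWTR1 at 7.41% did not pass (adjusted exact permutation p = 0.830, 0.611 and 0.262). On these scales TEAD2, TEAD3 and TEAD4 lay above the median gene and the other members below it.

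With an equal number of best peaks taken in every library, 3146 genes were higher and 1982 lower, and the median gene rose by 6.67%. YAP1 stood at -29.7% (adjusted p = 0.170, exact permutation test), TEAD1 at -11.5% (0.458) and TEAD3 at -2.50% (1.00). TEAD2 stood at 42.2% (0.0125), TEAD4 at 28.6% (0.0986), WWTR1 at 17.6% (0.120) and VGLL4 at 7.02% (0.824). TEAD3 thus lay below the median gene here, and WWTR1 and VGLL4 above it. Only TEAD2 (above), YAP1 and TEAD1 (below) kept their side of the median gene in every setting that used all libraries. With equal best peaks other peaks enter a list where stronger ones drop out, by its construction.

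**Figure D3:**
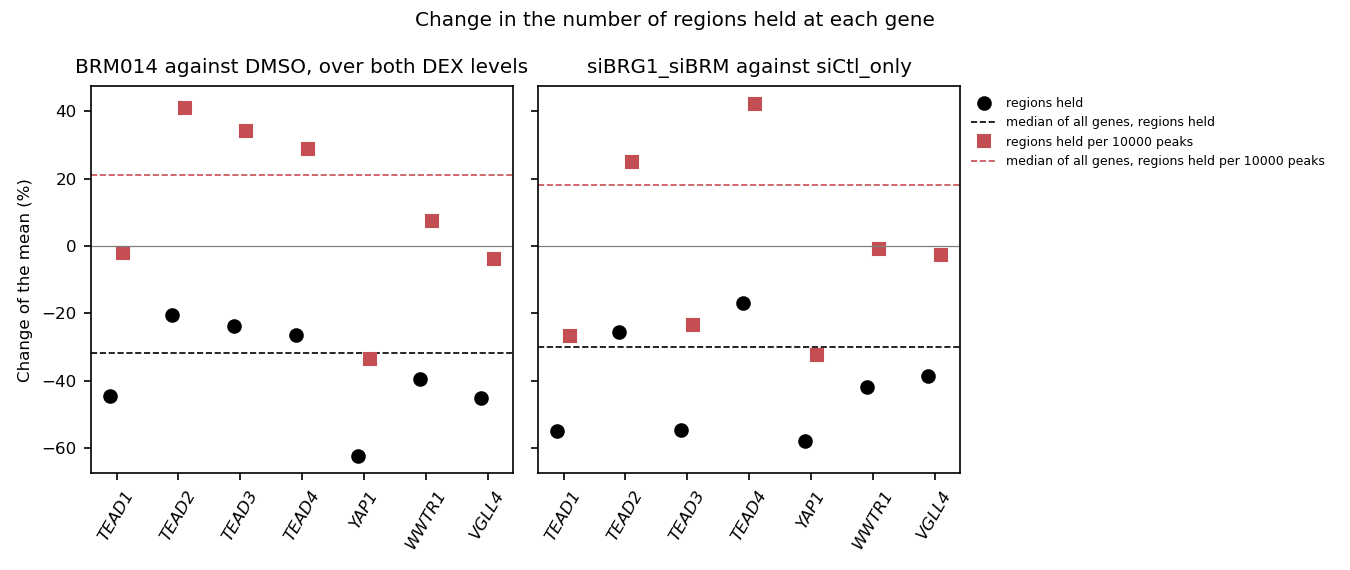
The vertical axis is the change of the mean number of regions held in percent, for each gene, with black circles for plain counts, red squares for counts per 10000 peaks and dashed lines for the median of all genes on the same scale. With BRM014, YAP1 lies below 0 on both scales (-62.2% and -33.6%), and TEAD2, TEAD3 and TEAD4 lie below 0 for plain counts and above it per 10000 peaks.

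Single regions were then called lost when every control library and no treated library held them, and gained in the opposite case. With BRM014 without DEX 24 of the 166 regions held at these genes by any of the 8 libraries were lost (14.5%, against 11.3% of all regions) and 1 was gained (0.0410% of all regions). TEAD1 lost 7 regions, YAP1 6, VGLL4 6, WWTR1 3, TEAD2 2 and TEAD3 and TEAD4 none. With DEX present 21 of 196 were lost (10.7%, against 11.6% of all regions) and none was gained (0.0761%). The shares over the members together lie near the background. In that setting VGLL4 lost 6, TEAD3, YAP1 and WWTR1 4 each, TEAD1 2, TEAD2 1 and TEAD4 none. Of the lost regions 11 were shared, 45.8% of the 24 and 52.4% of the 21. Over all regions these shares were 56.5% and 51.2%, so the members lay near the background here too.

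A test of presence over both DEX levels (exact permutation, adjusted over 152150 regions) called 22 of 194 regions of these genes lower (9.65% of all regions) and none higher (0.0204%). They were 6 of 43 at VGLL4, 5 of 22 at YAP1, 4 of 46 at WWTR1, 3 of 20 at TEAD3, 2 of 35 at TEAD1, 2 of 12 at TEAD2 and none of 16 at TEAD4.

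The lost region of YAP1 with the highest fold was chr11:102244812-102245394, about 12 kb past the higher-coordinate gene end. All 4 libraries of DMSO, of DEX_DMSO and of siCtl_only and all 12 of the GATA6 experiment held it, no library with BRM014 did, and 1 of 4 in siBRG1_siBRM did. Its fold was 20.9, 23.9 and 27.9 (lowest, median and highest) in DMSO, 23.7, 29.4 and 31.7 in siCtl_only and 8.45 in the 1 siBRG1_siBRM library. This was the only region of the 7 genes that was lost at both DEX levels also with an equal number of best peaks. With all peaks its adjusted p in the test of presence was 0.00714 (exact permutation). Every region lost at both DEX levels has that value, 8688 over all regions and 11 at these genes, so the p does not set this region apart.

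Inside YAP1, chr11:102157209-102157521 was held by every library of the other groups and by none of BRM014, DEX_BRM014 or siBRG1_siBRM. The same held for chr11:12727605-12727842 inside TEAD1 and for chr3:149473730-149474042 outside WWTR1, nearer to TM4SF4. Fold at the YAP1 region was 6.92 to 9.94 in DMSO and 3.95 to 12.1 in siCtl_only, and at the TEAD1 region 6.36 to 10.5 and 4.30 to 10.4. These are weaker peaks than the one past the end of YAP1.

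Some regions were lost at 1 DEX level only, a difference that was not tested for single regions. Inside TEAD1, chr11:12798529-12798934 was lost at both levels, while chr11:12792535-12792931 and chr11:12828016-12828646 were held by 0 of 4 BRM014 libraries and 2 of 4 DEX_BRM014 libraries. At the far side of YAP1, chr11:102279663-102280129, nearer to BIRC3, an inhibitor of apoptosis, was held by 4 of 4 DMSO, 0 of 4 BRM014, 4 of 4 DEX_DMSO and 4 of 4 DEX_BRM014 libraries. Its fold was 7.25 to 14.4 in DMSO, 6.98 to 11.6 in DEX_DMSO and 4.85 to 7.04 in DEX_BRM014. Between DEX_BRM014 and BRM014 it was the only gained region of the 7 genes (1 of 145 regions, 0.690%, against 0.323% gained of all regions), and none was lost (0.155%). That count was 3 without BRM014 replicate 4, and 0 for peaks past a −log10 q of 5.

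VGLL4 lost 4 regions at both DEX levels inside the gene, at chr3:11591466-11591893, chr3:11591948-11592152, chr3:11602026-11602253 and chr3:11641739-11641916. Another, chr3:11530070-11530638, lay outside it, nearer to ATG7. The 1 region gained with BRM014, chr3:11543958-11544119, also lay nearer to ATG7, an enzyme of autophagy. It was held by 4 of 4 BRM014, 2 of 4 DEX_BRM014 and 1 of 4 siBRG1_siBRM libraries and by no control library, with a fold of 4.48 to 6.92 in BRM014.

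By position, within 1000 bp of a gene end or start 2 of 29 regions were lost with BRM014 (6.90%, against 4.61% over all genes), and farther away 22 of 137 (16.1%, against 12.8%). With DEX present 3 of 32 near regions were lost (9.38%, against 4.68%), and 18 of 164 farther away (11%, against 13.2%). The members' shares near and far thus lay closer together with DEX, and the far share lay below that of all genes.

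Knockdown of both ATPases was compared with control siRNA in 4 libraries each. No gene passed over the whole table (0 of 19131, 0% in either direction, exact permutation test; smallest adjusted p 0.0895), while 6107 had an unadjusted p under 0.05, so this comparison could call no member. With these group sizes a p under 0.05 is reached only without overlap, so the 6107 genes are those whose groups separated fully. The median gene stood at -30.0%. YAP1 held 16, 15, 13 and 13 regions in siCtl_only and 10, 7, 3 and 4 in siBRG1_siBRM, without overlap (-57.9%, exact p = 0.0286, adjusted 0.0895). TEAD1 held 16, 14, 16 and 16 against 11, 8, 4 and 5 (-54.8%), also without overlap and with the same p.

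TEAD3 held 12, 11, 11 and 10 regions in siCtl_only and 7, 4, 4 and 5 in siBRG1_siBRM without overlap (-54.5%, exact p = 0.0286). WWTR1 held 28, 26, 26 and 23 against 18, 17, 12 and 13 (-41.7%, exact p = 0.0286). At VGLL4 the counts of 18, 18, 15 and 14 against 18, 10, 4 and 8 overlapped (-38.5%, exact p = 0.143), as did those of TEAD2, 12, 12, 12 and 11 against 12, 10, 7 and 6 (-25.5%, exact p = 0.143). TEAD4 held 11, 14, 11 and 11 against 11, 11, 8 and 9 (-17.0%, exact p = 0.286). None of these has an adjusted p under 0.05. Per 10000 peaks TEAD2 and TEAD4 stood higher with the knockdown, at 25.1% and 42.3%, and YAP1, TEAD1 and TEAD3 lower, at -32.3%, -26.6% and -23.3%, where the median gene stood at 18.1%.

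Of 160 regions at these genes, 14 were lost with siBRG1_siBRM (8.75%, against 6.73% of all regions) and none was gained (0.0282%). They were 4 at TEAD3, 4 at YAP1, 3 at TEAD1 and 3 at WWTR1. Within 1000 bp of a gene end or start 4 of 29 were lost (13.8%, against 2.51% over all genes), and farther away 10 of 131 (7.63%, against 7.86%). Of these, 3 were the regions at and beside the TEAD3 start described above. The fourth TEAD3 region, chr6:35485421-35485973 inside the gene, was held by 1 of 4 BRM014 libraries and by no DEX_BRM014 or siBRG1_siBRM library, with a fold of 9.94 to 11.1 in siCtl_only. Regions lost in both the inhibitor without DEX and the knockdown numbered 7, 29.2% of the 24 and 50.0% of the 14. Over all regions these shares were higher, at 30.8% and 58.3%. Without siBRG1_siBRM replicate 1, which held 18 regions at VGLL4 where the other libraries of its group held 4 to 10, the number of changed regions rose to 26.

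Dexamethasone was set against vehicle at 2 h and against DMSO at 4 h. Over both siRNAs the 2 h treatment called no gene in number of regions (0 of 19131, 0% in either direction; 2465 with an unadjusted exact permutation p under 0.05, smallest adjusted p 0.175), and the 4 h treatment called none over both levels of BRM014 (0%; 1599 under 0.05). The largest mean difference of a member at 2 h was 2.33 regions at TEAD4, with 14, 11 and 15 in siCtl_Veh, 15, 14 and 16 in siCtl_DEX, 12, 12 and 15 in siGATA6_Veh and 17, 15 and 16 in siGATA6_DEX (exact p = 0.0550, adjusted 0.386). At 4 h it was 2.12 at VGLL4 (exact p = 0.124, adjusted 0.760). No single region passed the test of presence for any factor but BRM014 (0%). The smallest possible exact permutation p is 0.00500 for DEX at 2 h and siGATA6, and 0.0286 for siBRG1_siBRM. Adjusted over 131625 and 92414 regions, such a p passes only if a large share of all regions reaches it. Too few had an unadjusted p under 0.05 (4429, 1059 and 8157), so for these factors the test could call no region.

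By the all-or-none rule DEX for 2 h gained 4 of 209 regions in control siRNA (1.91%, against 2.52% of all regions) and lost 1 (0.478%, against 0.817%). In siGATA6 cells it gained 7 of 211 (3.32%, against 2.36%) and lost 2 (0.948%, against 0.595%). Without siCtl_Veh replicate 3 the number changed in control siRNA was 9 in place of 5, and without siCtl_DEX replicate 2 it was 11. Without siGATA6_Veh replicate 3 the number in siGATA6 cells was 14 in place of 9. These shares lie near the background, and the regions are given as a description.

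In both siRNA settings 3 regions were gained, 75.0% of the 4 and 42.9% of the 7, where over all regions these shares were 51.8% and 53.9%. Inside YAP1, chr11:102178079-102178274 was held by 0 of 3 siCtl_Veh, 3 of 3 siCtl_DEX, 0 of 3 siGATA6_Veh and 3 of 3 siGATA6_DEX libraries, and by 3 of 4 DEX_DMSO libraries but none of DMSO, BRM014 or DEX_BRM014. Its fold was 6.21 to 8.69 in siCtl_DEX and 8.49 to 9.73 in siGATA6_DEX. It lies beside chr11:102178319-102178641, which was held without DEX too and was lost with BRM014 in the presence of DEX and with siBRG1_siBRM. The region chr12:3027956-3028499 inside TEAD4 had the same counts in every group, with a fold of 3.84 to 5.42 in siCtl_DEX. The third, chr3:149539446-149539717 inside WWTR1, was held by no DEX_DMSO library and by 1 of 4 DEX_BRM014 libraries.

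At 4 h, DEX_DMSO against DMSO gained 3 of 182 regions (1.65%, against 1.56% of all regions), all at VGLL4, and lost 1, at YAP1 (0.549%, against 0.434%). Inside VGLL4, chr3:11576498-11576965 was held by 0 of 4 DMSO and 4 of 4 DEX_DMSO libraries, by 0 of 4 BRM014 and 2 of 4 DEX_BRM014, and at 2 h by 0 of 3 siCtl_Veh and 3 of 3 siCtl_DEX. Its fold was 5.79 to 10.3 in DEX_DMSO and 10.3 to 11.1 in siCtl_DEX. The regions chr3:11553750-11554097, nearer to ATG7, and chr3:11757976-11758236, nearer to TAMM41, were held by 4 of 4 DEX_DMSO libraries and by no DMSO library. With the inhibitor 1 and 0 of 4 DEX_BRM014 libraries held them. The lost region, chr11:102158306-102158557 inside YAP1, was held by 4 of 4 DMSO libraries and by none of DEX_DMSO, BRM014 or DEX_BRM014. Without DEX_DMSO replicate 3 the number of changed regions was 7 in place of 4.

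**Figure D4:**
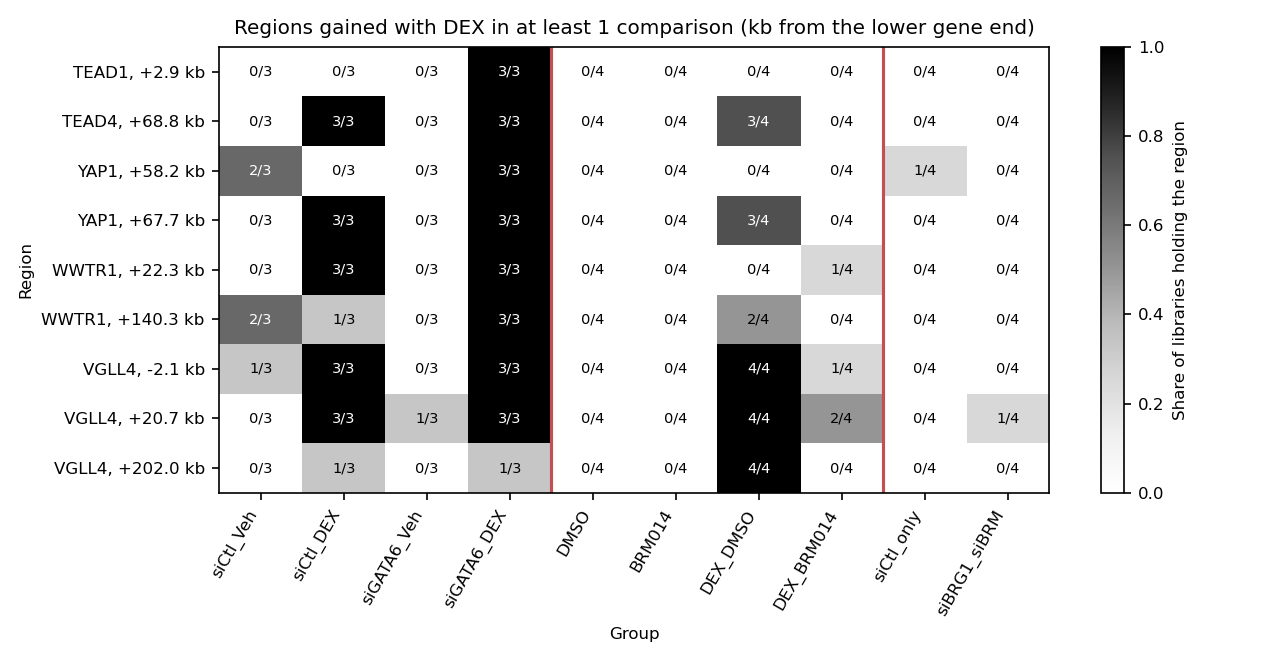
Rows are the 9 regions gained with DEX in at least 1 of 3 comparisons, named by gene and distance from the lower-coordinate gene end in kb, columns are the 10 groups, and cells give libraries holding the region of libraries in the group. The regions were chosen by these counts; in DEX_BRM014 none is held by more than 2 of 4 libraries.

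With siRNA against GATA6 no gene was called (0 of 19131, 0% in either direction, exact permutation test; 677 with an unadjusted p under 0.05, smallest adjusted p 1.00), and the largest mean difference of a member was 1.33 regions at WWTR1 (exact p = 0.105). The smallest possible exact permutation p is 0.00500, and too few genes had a p under 0.05 for any to pass. The test could therefore call no gene and does not show that GATA6 had no effect. In vehicle 1 of 200 regions was gained (0.500%, against 0.459% of all regions), chr3:11668891-11669093 inside VGLL4, and none was lost (0.806%). This count ran from 2 to 7 when single libraries were left out, each of the 6 moving it, with 7 without siGATA6_Veh replicate 3. Its direction was not stable either: among peaks past a −log10 q of 5 there were 0 gained and 1 lost, and with 50% cover 2 gained and 1 lost. With DEX 4 of 217 were gained (1.84%, against 0.677%), 1 each at TEAD1, TEAD3, YAP1 and VGLL4, and none was lost (0.710%). Those at TEAD1 (chr11:12677265-12677414) and YAP1 (chr11:102168577-102168779) also counted as gained with DEX in siGATA6 cells, a comparison that uses the same siGATA6_DEX libraries. Among peaks past a −log10 q of 5 the 4 became 0, and without siGATA6_DEX replicate 1 they became 7.

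The effect of BRM014 on the number of regions was not called different with and without DEX at any member, nor that of DEX with and without siGATA6 (permutation test of the interaction, 100000 draws, adjusted over 19131 genes). Over all genes 52 were called for the first and 0 for the second, with 1443 and 1000 at an unadjusted p under 0.05.

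The rest of the pathway was described from lists of its known genes. With BRM014, 21 of 24 Hippo kinases and regulators held fewer regions and none held more, where 70.4% of all genes held fewer, with a median of -35.8% against -31.6% over all genes. MOB1A, MOB1B and RASSF1 did not pass. Among the called, AMOTL1, an angiomotin that binds YAP, went from 12.2 to 3.75 regions, AMOT from 6.88 to 2.12, the kinase gene MAP4K4 from 10.5 to 3.62, and FRMD6, a cortical scaffold, from 23.5 to 10.6. STK3, which encodes the upstream Hippo kinase MST2, went from 47.2 to 23.6. The same background holds for the next lists. The vestigial-like genes VGLL1, VGLL2 and VGLL3 all fell in number (median -58.3%). So did 7 of 7 direct YAP and TEAD targets (median -37.1%), among them F3, which encodes tissue factor, from 8.62 to 1.75 and CRIM1 from 25.1 to 9.0, with CCN2, the best known target, from 14.8 to 11.8. The adjusted exact permutation p of all these named calls was at most 0.00515. Per 10000 peaks, 11 of the 24 Hippo genes were higher and 5 lower (median 14.1%, against 21.0% over all genes). On that scale 0 of 3 vestigial-like genes were higher and 2 lower, and 2 of 7 targets were higher and 3 lower (median 11.2%). CCN2 turned higher by 41.5% (adjusted exact permutation p = 0.00539), while F3 at -64.4% and CRIM1 at -36.2% stayed lower (0.00159 each). STK3 at -12.5% (0.0656) and VGLL1 at 19.5% (0.0879) did not pass. With equal best peaks 2 Hippo genes were higher and 7 lower, 1 vestigial-like gene and 2 targets were lower, and F3 did not pass (-40.0%, adjusted exact permutation p = 0.0509). None of the listed genes was called for DEX, siGATA6 or siBRG1_siBRM, and for the knockdown the medians were -35.0%, -58.3% and -29.4% against -30.0% over all genes.

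Over the 36 libraries the share of a gene's regions held was most alike, by Pearson's r among 16054 genes, between YAP1 and PHLDB2 (0.971) and MATN2 (0.970). WWTR1 was most like ATXN1 (0.978) and SLC14A2 (0.974), VGLL4 most like RASA3 (0.966) and THRB (0.963), and TEAD1 most like ITGA11 (0.968) and LHFPL7 (0.965). For TEAD3 the genes were NANOS1 (0.937) and ZC3H3 (0.936), for TEAD2 SLC25A51 (0.909) and NUDT22 (0.907), and for TEAD4 RAB13 (0.902) and RPS27 (0.895). All genes share the libraries and their peak numbers, and the median r over the candidates was already 0.726 at TEAD4 to 0.841 at WWTR1.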

How the data were processed

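ATAC-seq was made from BT549 cells in 36 libraries. Per the submitters' processing notes the authors used bcl2fastq, SAMtools, MACS2 and HOMER on GRCh38 (hg38). For the aligner, read shifting, duplicate handling and peak-calling settings the sources used here give nothing. The deposited lists, 1 per library and not pooled, give each peak the authors' fold enrichment (a ratio to that library's background) and −log10 p and −log10 q values. These were used to describe, rank and filter peaks. No read counts were used, so total depth is unknown. Relative depth was recovered from fold and p in 1000 peaks per library within a tolerance of 0.002.

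Peaks of all libraries were merged into regions with Python, numpy, pandas and scipy. Genes, names and starts came from RefSeq. Presence per library gave all-or-none calls, and counts per gene with at least 3 regions gave two-sided exact permutation tests stratified by the other factor, adjusted over all genes. The tests were also run on simulated data. There each region kept its share in all libraries of an experiment, save for losses set at drawn genes. Those data had no general fall in peak number, so they do not check the tests under such a fall. P-values measure the spread between libraries whose titles call them biological replicates.

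The members, lists and rules were chosen with earlier results of these data known. All 7 members were named, with the regions of highest mean fold, at the gene ends, and up to 4 lost and gained per comparison by rank, and further regions after their values were seen. Lists named were Hippo kinases and regulators, vestigial-like cofactors, direct targets, and markers of mesenchymal, luminal, leukocyte and endothelial cells. The alternatives were a −log10 q of at least 5, an equal number of best peaks, merging per experiment, 50% cover, windows of 10 and 100 kb, counts per 10000 peaks, a replicate block and leaving out each replicate.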

Additional observations from a re-analysis of the deposited data

Results flagged for a closer look

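Values that stood apart from the other libraries of their group were found in 5 of 48 groups of 4 libraries tested, where chance gives about 1 in 20. At TEAD4 BRM014 replicate 4 held 5 regions where the others held 10 each. This library also had the fewest peaks of its experiment, 41026. Among the siCtl_only libraries, replicate 2 was the lowest at TEAD1 with 14 regions, where the others held 16 each, and the highest at TEAD4 with 14, where the others held 11 each. Replicate 4 was the lowest at TEAD2 with 11, where the others held 12 each. Replicate 3 had the fewest peaks of siCtl_only, 81639, where the others had 86631 to 87609. Counts this small take few values, so equal counts in the other libraries make a gap of 2 or 3 regions stand out.

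Of 14 interactions tested at the members, 2 had an unadjusted p under 0.05 and neither passed the adjustment. At TEAD1 the change with DEX was 4.00 regions greater with siGATA6 than with control siRNA (permutation p = 0.0232, adjusted 0.874). DEX took the mean from 22.7 to 21.0 in control siRNA and from 19.7 to 22.0 in siGATA6 cells. At TEAD2 the change with BRM014 was 3.00 regions greater, that is less negative, with DEX (permutation p = 0.0352, adjusted 0.589), with means of 13.0 and 9.0 without DEX and 11.5 and 10.5 with it.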

How the results depend on the processing

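The direction at YAP1 with BRM014 was lower under every alternative run, and its call was lost in 1 of them, an equal number of best peaks (adjusted exact permutation p = 0.170). All 7 members kept their BRM014 call when any replicate was left out. The number of genes called for BRM014 was 13478 and became 5128 with equal best peaks and 7631 with a 10 kb window, and the 14713 regions called became 6196 with equal best peaks. The mean difference in regions held reversed with equal best peaks to 2.38 at TEAD2, 1.5 at TEAD4, 2.00 at WWTR1 and 0.500 at VGLL4 for BRM014. For siBRG1_siBRM it reversed to 1.00 at TEAD2, 1.75 at TEAD4, 0.250 at YAP1 and 2.75 at WWTR1. Per 10000 peaks it reversed to 0.523 at TEAD2, 0.371 at TEAD3, 0.369 at TEAD4 and 0.211 at WWTR1 for BRM014, and to 0.345 at TEAD2 and 0.580 at TEAD4 for siBRG1_siBRM. In both settings the treated libraries' lower peak numbers are evened out by construction. With peaks covering 50% of a region, TEAD2 lost its BRM014 call (adjusted exact permutation p = 0.0552).

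Counts of changed member regions moved as follows. With a −log10 q of at least 5 they were 0 for siGATA6_DEX against siCtl_DEX, 0 for DEX_BRM014 against BRM014 and 9 for siBRG1_siBRM. With equal best peaks they were 2 for siGATA6_DEX against siCtl_DEX, 2 for BRM014, 2 for DEX_DMSO, 6 for DEX_BRM014 against DEX_DMSO and 1 for siBRG1_siBRM. The 6 were 3 gained and 3 lost, and the 1 was gained, where all 21 and 14 had been lost. With 50% cover they were 3 for siGATA6_Veh, 0 for DEX_BRM014 against BRM014 and 6 for siBRG1_siBRM. With 10 kb they were 2 for siGATA6_DEX against siCtl_DEX, 13 for DEX_BRM014 against DEX_DMSO and 0 for DEX_BRM014 against BRM014. With 100 kb they were 10 for siCtl_DEX, 2 for siGATA6_Veh, 7 for DEX_DMSO and 3 for DEX_BRM014 against BRM014. For the 10 and 100 kb windows the number of regions itself changes, and for the rest the cause was not tested.

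Leaving out single replicates gave 5 to 11 for siCtl_DEX, 2 to 7 for siGATA6_Veh, 5 to 7 for siGATA6_DEX against siCtl_DEX, 9 to 14 for siGATA6_DEX against siGATA6_Veh, 4 to 7 for DEX_DMSO, 1 to 3 for DEX_BRM014 against BRM014, and 14 to 26 for siBRG1_siBRM. It gave 25 to 32 for BRM014 and 21 to 27 for DEX_BRM014 against DEX_DMSO. The all-or-none rule asks for fewer libraries then. Peak number with siBRG1_siBRM ran from -46.7% to -35.3%, past the threshold except where a siCtl_only library was left out.

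Deviations of libraries with the same replicate number correlated weakly and positively in the GATA6 experiment (0.009 to 0.102, other pairs median -0.031), where 11 of 12 libraries correlated best with their own number. In the other experiments the correlations were -0.019 to 0.066 and -0.052 to 0.030, with 8 of 16 and 3 of 8. The labels name no shared source, and the main tests do not pair the libraries by number. For the GATA6 experiment, where every same-number correlation was positive, those tests thus leave out a possible pairing. With the replicate block 0 genes were called for DEX at 2 h and for siGATA6 as well, but the block allows fewer arrangements. With the replicate block BRM014 called 12583 genes and all 7 members, but 0 regions, and the peak number changes of -43.0%, -43.8% and -40.6% had an exact permutation p of 0.125, the smallest it allows. The block allows fewer arrangements, so its 0 regions do not show that presence was unchanged. No interaction was run with the block.

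Depth limits the weak peaks first. An absent peak means that no peak passed the authors' threshold in that library, not that the site was closed.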
